A study of Mus musculus with 13 samples.

Results

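The subject is a set of 9 genes that most white blood cells express and that other cells express little: Ptprc, Rac2, Lcp1, Plek, Cd48, Fcer1g, Cd53, Coro1a and Laptm5. They were taken by symbol from a table of 33433 gene entries, and all 9 were found in it. Here they serve as a measure of blood cell RNA in cells that were sorted as mesenchymal stromal cells (MSCs), the bone marrow cells that make fat, bone and the supporting niche of blood formation. The study sequenced polyadenylated RNA of MSCs sorted from the nucleated cells of bone marrow and compact bones of C57BL/6 mice. It holds 3 libraries of healthy homeostatic mice, 6 of pre-leukemic mice and 4 called recovered, which the protocol describes as pre-leukemic mice that were given MSCs. The pre-leukemic genotype, the sort markers, the ages, the dose of MSCs and whether each library came from a separate mouse are not stated in the labels used here. The p-values therefore measure the spread between libraries, which may be technical.

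Leukocytes carry these genes because of what they do: they signal through surface receptors, crawl, engulf particles and kill microbes. Ptprc encodes CD45, the surface phosphatase that sets the activity of Src family kinases and is found on nearly all nucleated blood cells but not on stromal cells or mature red cells. Antibodies to CD45 are commonly used to keep blood cells out of an MSC sort. The other 8 genes encode surface proteins (Cd48, Cd53, Fcer1g), actin and motility proteins (Rac2, Coro1a, Lcp1), a substrate of protein kinase C (Plek) and a lysosomal membrane protein (Laptm5).

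Expression was given as FPKM, fragments scaled to the length of the transcript and to the mapped fragments of the library. From the steps between low values, 1 read on a transcript of 1 kb was worth 0.323 to 0.395 FPKM in the healthy libraries, 0.165 to 0.25 in the pre-leukemic and 0.359 to 0.655 in the recovered ones. Healthy 1 and healthy 3 differed by little more than sampling noise (chi-square 1.17 per gene over 208 genes, against 21.4 to 118 in the other 23 pairs of libraries of 1 group), so their mean was counted as 1 sample and the healthy group has n = 2. Immunoglobulin genes took 54.9 to 80.5% of all FPKM in each pre-leukemic library, against 0.134% or less elsewhere. The label MSC was checked against 12 stromal genes, among them Cxcl12, Lepr and Pdgfra. Their summed level was 16180 to 17750 FPKM in the healthy libraries, 6425 to 9067 in the recovered and 326 to 1070 in the pre-leukemic, so the pre-leukemic libraries were low in stromal and high in leukocyte RNA, and none of the 12 genes was at 0 in every library of a group.

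RefSeq (GRCm38.p6) gave 11 windows of the 250 bases before a transcription start for 8 of the 9 genes. Shown are the 4 windows with a TGTGGT or a TATAAA, printed 5′ to 3′ on the gene's strand. By the GENCODE gene coordinates given below, the Ptprc window lies inside the gene and the Laptm5 window runs into it. Capitals mark GGAA, the core of ETS family sites, TGTGGT, the core of RUNX sites, and TATAAA, each read on both strands.
Ptprc, chr1:138175306-138175555, minus strand: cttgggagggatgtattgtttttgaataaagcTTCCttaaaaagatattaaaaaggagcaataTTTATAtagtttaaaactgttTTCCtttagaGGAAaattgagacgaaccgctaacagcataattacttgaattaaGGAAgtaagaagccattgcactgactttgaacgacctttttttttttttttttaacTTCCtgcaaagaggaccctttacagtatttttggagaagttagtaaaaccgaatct
Cd48, chr1:171681742-171681991, plus strand: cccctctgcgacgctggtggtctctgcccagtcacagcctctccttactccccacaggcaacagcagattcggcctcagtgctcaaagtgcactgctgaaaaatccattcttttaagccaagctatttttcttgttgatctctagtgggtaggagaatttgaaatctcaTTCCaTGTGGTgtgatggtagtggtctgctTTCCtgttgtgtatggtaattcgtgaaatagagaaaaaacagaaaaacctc
Cd53, chr3:106790150-106790399, minus strand: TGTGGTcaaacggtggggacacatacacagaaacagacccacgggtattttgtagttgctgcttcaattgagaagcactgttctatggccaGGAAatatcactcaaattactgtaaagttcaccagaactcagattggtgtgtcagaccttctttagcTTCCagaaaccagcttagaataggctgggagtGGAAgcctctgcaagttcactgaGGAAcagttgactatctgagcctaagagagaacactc
Laptm5, chr4:130913066-130913315, plus strand: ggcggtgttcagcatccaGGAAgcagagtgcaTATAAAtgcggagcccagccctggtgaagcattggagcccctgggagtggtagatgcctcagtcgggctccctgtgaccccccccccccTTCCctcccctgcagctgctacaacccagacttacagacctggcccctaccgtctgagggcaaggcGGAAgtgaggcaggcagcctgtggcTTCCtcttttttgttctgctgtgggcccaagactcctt
GGAA was present in all 11 windows, and in 93.4% of the 32851 windows of all genes. TGTGGT was present in 2 of the 11, those of Cd48 and Cd53, against 14% of all windows. TATAAA was in 2, those of Ptprc and Laptm5, against 12.4%. The longer PU.1 site GAGGAAGT, which contains GGAA, was in none of the 11, against 2.44%. These matches describe letters in a window and not bound sites.

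All 9 genes were higher in every pre-leukemic library than in every healthy or recovered one. The 9 summed to 44.4 to 48.1 FPKM in the healthy libraries and to 1428 to 2258 in the pre-leukemic libraries. In the recovered libraries the sum was 44.9, 35.0, 126.9 and 20.7 FPKM in replicates 1 to 4. The lowest pre-leukemic value was above the highest of the other 7 libraries by 3.54 times for Laptm5, the narrowest gap, and by 22.8 times for Plek, the widest. Such a gap was found for 1600 (12.2%) of the 13118 genes tested. In bulk libraries, fewer cells of a type and less RNA per cell cannot be told apart.

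**Figure D1:**
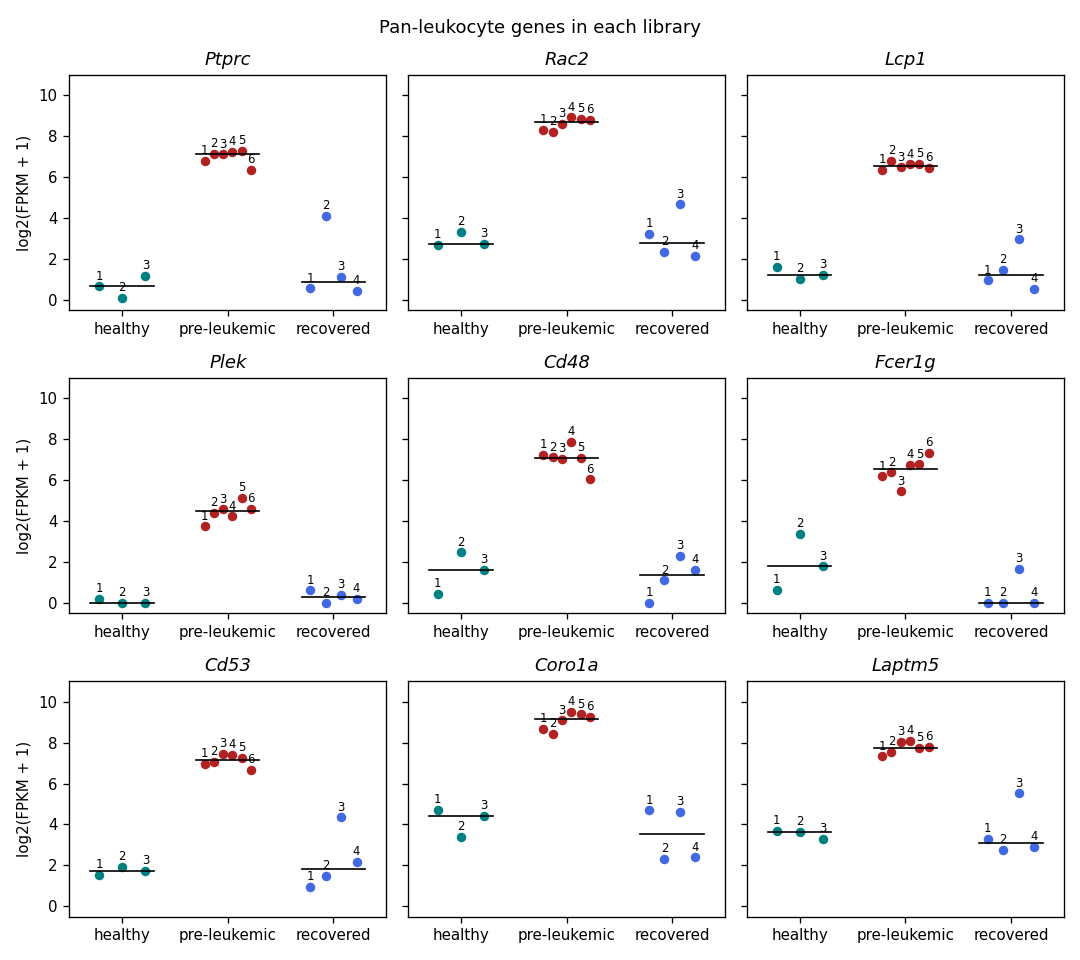
Level of each gene, as log2(FPKM + 1), in the 3 healthy, 6 pre-leukemic and 4 recovered libraries; points are libraries with their replicate number and lines are group medians. Every pre-leukemic point lies above every other point in all 9 panels, and recovered 2 stands apart for Ptprc and recovered 3 for Cd53 and Laptm5.

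In the fit across all 13118 genes (limma on log2(FPKM + 1), Benjamini-Hochberg adjusted p under 0.05), all 9 genes were higher in pre-leukemic than in healthy libraries, where 14.2% of all genes were called higher and 13.1% lower. Their median log2 difference was 5.24, against 0.20 over all genes. All 9 were lower in recovered than in pre-leukemic libraries, where 25.1% of all genes were called lower and 14.8% higher, with a median log2 difference of -5.41 against -0.41 over all genes. Both comparisons use the same pre-leukemic libraries. None of the 9 was called between recovered and healthy libraries, where 0.518% of all genes were called higher and 1.99% lower, and 1 of the 9, Fcer1g, had an unadjusted limma p under 0.05. Of the 9, Plek reached the filter of 1 FPKM in 3 libraries only through the pre-leukemic libraries, as did 2300 of the genes tested.

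**Figure D2:**
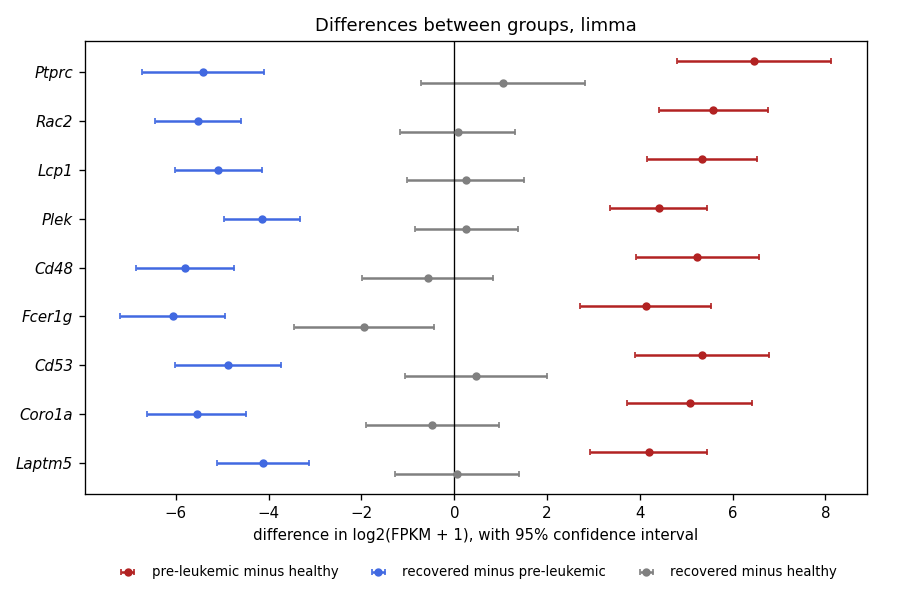
Differences in log2(FPKM + 1) between groups for the 9 genes, with 95% confidence intervals from limma, in 3 colours for the 3 comparisons. The intervals of pre-leukemic minus healthy lie above 0 and those of recovered minus pre-leukemic below 0 for all 9 genes, and those of recovered minus healthy include 0 except for Fcer1g.

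Among the surface proteins, Ptprc (chr1:138062861-138175708, minus strand, GRCm38) was the least expressed in the healthy cells after Plek. Its level was 0.591, 0.0797 and 1.25 FPKM in healthy 1, 2 and 3, which is about 9.29, 1.02 and 17.5 reads. In the pre-leukemic libraries it was 80.7 FPKM at the lowest, 137.7 at the median and 154.9 at the highest. In recovered 1 to 4 it was 0.483, 16.4, 1.21 and 0.365 FPKM. Recovered 2 stood far above the other recovered libraries, which were all within the healthy range, and still lay below every pre-leukemic library. Ptprc was 6.46 ± 0.78 (SE) higher on the log2(FPKM + 1) scale in pre-leukemic than in healthy libraries (limma adjusted p = 3.439e-05), and recovered libraries were -5.41 ± 0.61 against pre-leukemic (limma adjusted p = 9.48e-06).

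Cd48 (chr1:171682009-171705258, plus strand), a receptor of the SLAM family anchored by a lipid that binds CD2 and CD244, was at 0.381, 4.61 and 2.12 FPKM in healthy 1 to 3. Its pre-leukemic levels ran from 65.5 through a median of 136.5 to 235.7 FPKM. Recovered 1 to 4 held 0, 1.16, 3.98 and 2.06 FPKM. The healthy and recovered ranges overlapped, and pre-leukemic 4 and pre-leukemic 6 were the highest and the lowest of their group. Pre-leukemic libraries exceeded healthy ones by 5.24 ± 0.62 (SE) on the log2 scale (limma adjusted p = 3.008e-05) and the difference was -5.81 ± 0.49 for recovered against pre-leukemic (limma adjusted p = 6.558e-07).

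Cd53 (chr3:106759921-106790149, minus strand) encodes a tetraspanin that organizes membrane receptors of leukocytes. Its levels were even across the healthy libraries, at 1.88, 2.82 and 2.34 FPKM, and ran from 100.6 through 142.0 to 174.9 FPKM in the pre-leukemic ones. In recovered 1 to 4 it was 0.948, 1.83, 19.3 and 3.54 FPKM. Recovered 3 was the one library of that group well above the healthy ones. The log2 difference was 5.35 ± 0.67 (SE) for pre-leukemic against healthy (limma adjusted p = 4.882e-05) and -4.88 ± 0.53 for recovered against pre-leukemic (limma adjusted p = 6.5e-06).

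Fcer1g (chr1:171229572-171234365, minus strand) encodes the common gamma chain of Fc receptors, which carries the signalling motif for several activating receptors of myeloid and natural killer cells. On the chromosome it lies 447.6 kb from Cd48. It was at 0.563, 9.51 and 2.49 FPKM in healthy 1 to 3, and from 43.1 through 94.9 to 162.6 FPKM in the pre-leukemic libraries. It was listed at 0 in recovered 1, 2 and 4 and at 2.17 FPKM in recovered 3. Healthy 2 was thus above every recovered library, and healthy 1 lay within their range. The values in healthy 3 and recovered 3 stand for about 4.71 and 2.26 reads, so their order could not be told at this depth. The log2 difference was 4.12 ± 0.66 (SE) for pre-leukemic against healthy (limma adjusted p = 0.0003654) and -6.07 ± 0.52 for recovered against pre-leukemic (limma adjusted p = 7.933e-07). Between recovered and healthy it was -1.95, with a 95% interval of -3.46 to -0.44 and an adjusted limma p of 0.1734.

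Rac2 (chr15:78559167-78572783, minus strand), the Rac GTPase of blood cells that drives migration and the phagocyte oxidase, was at 5.49, 9.12 and 5.67 FPKM in healthy 1 to 3. It was from 293.0 through 419.8 to 483.2 FPKM in the pre-leukemic libraries. In recovered 1 to 4 it was 8.34, 4.06, 24.4 and 3.48 FPKM. Recovered 3 was above every healthy library, and recovered 2 and 4 were below them all. Rac2 differed by 5.59 ± 0.55 (SE) on the log2 scale between pre-leukemic and healthy libraries (limma adjusted p = 5.816e-06) and -5.52 ± 0.43 for recovered against pre-leukemic (limma adjusted p = 3.188e-07).

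Coro1a (chr7:126699773-126707787, minus strand) encodes coronin 1A, an actin-binding protein that T cells need for survival. It was the highest of the 9 in all 6 pre-leukemic libraries, from 342.6 through 577.7 to 727.7 FPKM. It was also well above 0 in healthy 1 to 3, at 25.2, 9.42 and 20.4 FPKM, and in recovered 1 to 4, at 24.7, 3.98, 23.6 and 4.26 FPKM. The recovered libraries fell into a high and a low pair, and the high pair lay within the healthy range. The log2 difference was 5.08 ± 0.63 (SE) for pre-leukemic against healthy (limma adjusted p = 4.251e-05) and -5.55 ± 0.50 for recovered against pre-leukemic (limma adjusted p = 1.121e-06).

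Lcp1 (chr14:75131101-75230842, plus strand) encodes L-plastin, which bundles actin filaments in leukocytes. It varied least among the pre-leukemic libraries, from 81.2 through 93.2 to 110.7 FPKM, a coefficient of variation of 11.2%, against 42.3% for Fcer1g. Healthy 1 to 3 held 2.04, 1.04 and 1.33 FPKM, and recovered 1 to 4 held 0.939, 1.75, 6.76 and 0.440 FPKM. Recovered 3 was the only library outside the pre-leukemic group above 2.04 FPKM. Pre-leukemic against healthy, Lcp1 differed by 5.34 ± 0.55 (SE) on the log2 scale (limma adjusted p = 9.968e-06) and -5.09 ± 0.44 for recovered against pre-leukemic (limma adjusted p = 7.795e-07).

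Plek (chr11:16971206-17052381, minus strand) encodes pleckstrin, abundant in platelets and myeloid cells. It was the lowest of the 9 in all 6 pre-leukemic libraries, from 12.4 through 21.6 to 34.2 FPKM. It was at 0.148, 0 and 0 FPKM in healthy 1 to 3 and at 0.545, 0, 0.319 and 0.165 FPKM in recovered 1 to 4. Most of those values stand for a few reads at most, so the healthy and recovered levels could not be ordered at this depth. Plek differed by 4.40 ± 0.49 (SE) on the log2 scale between pre-leukemic and healthy libraries (limma adjusted p = 1.772e-05), or 7.31 with a pseudocount of 0.1 in place of 1. It was -4.14 ± 0.39 for recovered against pre-leukemic (limma adjusted p = 1.572e-06).

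Laptm5 (chr4:130913125-130936141, plus strand) encodes a lysosomal protein that lowers antigen receptor levels on lymphocytes. It was at 11.8, 11.4 and 8.86 FPKM in healthy 1 to 3 and from 159.5 through 215.6 to 271.6 FPKM in the pre-leukemic libraries. In recovered 1 to 4 it was 8.92, 5.81, 45.1 and 6.42 FPKM. Recovered 3 came nearer to the pre-leukemic libraries than any other library did for this gene. The log2 difference was 4.19 ± 0.59 (SE) for pre-leukemic against healthy (limma adjusted p = 0.0001188) and -4.13 ± 0.46 for recovered against pre-leukemic (limma adjusted p = 8.579e-06). On the TPM scale every library has the same total, and the median log2 difference over all genes was -1.12 between pre-leukemic and healthy libraries. There the 2 differences of Laptm5 were 2.57 and -2.71, and Fcer1g was 2.61 for pre-leukemic against healthy, all still called.

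The order of the FPKM levels was the same at its ends in all 6 pre-leukemic libraries, with Coro1a first, then Rac2, then Laptm5, and with Plek last in each. Between them the places changed, and Cd48 and Fcer1g each ran from place 4 to place 8. The means were 548.8 ± 150.0 FPKM for Coro1a, 398.2 ± 79.0 for Rac2 and 218.4 ± 43.5 for Laptm5 (SD, n = 6). Cd48 at 142.4 ± 54.6, Cd53 at 141.6 ± 28.0 and Ptprc at 128.7 ± 28.3 FPKM (SD, n = 6) did not differ beyond their spread, nor did Fcer1g at 96.1 ± 40.6 and Lcp1 at 94.0 ± 10.6. Plek was at 21.9 ± 7.27 FPKM (SD, n = 6). Outside that group the order was looser. Coro1a led in healthy 1, healthy 3 and recovered 1, Laptm5 in healthy 2, recovered 3 and recovered 4, and Ptprc in recovered 2.

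**Figure D3:**
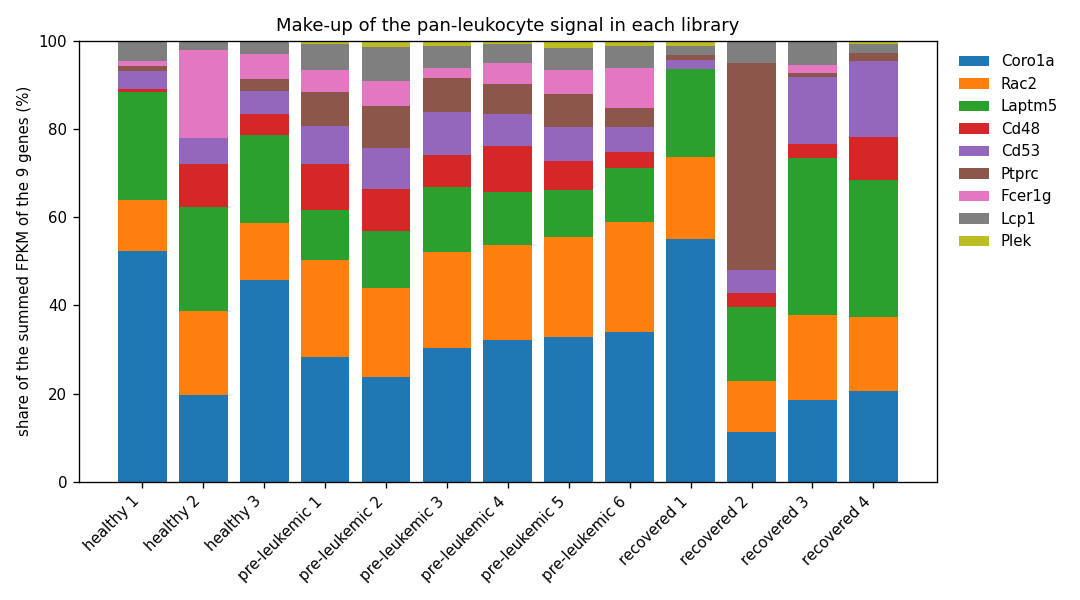
Share of each gene in the summed FPKM of the 9 genes, in percent, one bar per library. The 6 pre-leukemic bars resemble each other, whereas Ptprc takes 46.9% of the bar of recovered 2.

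Coro1a was 23.7 to 34.0% of the summed level in the pre-leukemic libraries, 19.6 to 52.4% in the healthy and 11.4 to 55.1% in the recovered ones. Laptm5 was 10.5 to 14.7% in the pre-leukemic libraries, 19.9 to 24.5% in the healthy and 16.6 to 35.5% in the recovered ones. The share of Laptm5 was thus higher in every healthy and recovered library than in any pre-leukemic one. Within the pre-leukemic group, pre-leukemic 4 was the highest for Rac2, Cd48, Coro1a and Laptm5. Pre-leukemic 6 was the lowest for Ptprc, Cd48 and Cd53 and the highest for Fcer1g. Tyrobp, an adapter that like Fcer1g carries an activating motif in myeloid and natural killer cells, ran beside it from 195.2 to 423.6 FPKM in pre-leukemic 1 to 4, with 1095 in pre-leukemic 5 and 1153 in pre-leukemic 6.

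Between recovered and healthy libraries no gene of the 9 passed the test, and the ranges of the 2 groups overlapped for each. The intervals were wide, with n = 2 and n = 4. For Ptprc the log2 difference was 1.05, with a 95% interval of -0.72 to 2.81, and for Rac2 it was 0.07, with an interval of -1.17 to 1.31. For Cd53 it was 0.46 (-1.07 to 1.99), for Lcp1 0.25 (-1.01 to 1.51), and for Plek 0.26 (-0.85 to 1.37). Laptm5 was at 0.06 (-1.27 to 1.39), Coro1a at -0.47 (-1.90 to 0.96) and Cd48 at -0.57 (-1.98 to 0.84). Recovered 3 was the highest recovered library for 6 of the 9 genes, and without it Rac2, Lcp1, Cd53 and Laptm5 were -0.45, -0.25, -0.24 and -0.58 against healthy, none of them called.

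Recovered 2 and recovered 3 differed from the other recovered libraries in different genes. In recovered 2 Ptprc was high, at about 187.7 reads, while Coro1a and Laptm5 were the lowest of the 4. Genes high in the same library, chosen after their values were seen, were Cd3g, a T cell receptor subunit, at 58.6 FPKM, Sash3, a lymphocyte adapter, at 17.2, and Ikzf1, a lymphoid transcription factor, at 9.90. Cd3d, which accompanies Cd3g in the receptor, was at 0 in all 4 recovered libraries. In recovered 3, beside Rac2, Lcp1, Cd48, Fcer1g, Cd53 and Laptm5, the pre-B cell genes Igll1 and Vpreb1 were at 496.9 and 185.4 FPKM, against at most 98.4 and 36.3 in the other recovered libraries. The 10 B cell genes summed to 948.7 FPKM there, the highest of the 13 libraries, and their part in the leukocyte values of recovered 3 was not tested. With recovered 2 and recovered 3 both left out, 9 of 9 genes were still called in each comparison with the pre-leukemic libraries and 0 between recovered and healthy.

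Several of the 9 have paralogs that other cells use for the same task, so each library was also read as a log2 ratio of (FPKM + 1) within such a pair. Rac2 over Rac1, the ubiquitous Rac, was -5.00, -4.14 and -4.87 in healthy 1 to 3, 1.30 to 2.16 in the pre-leukemic libraries, and -4.40, -5.33, -2.10 and -5.22 in recovered 1 to 4. Lcp1 over Pls3, the plastin of most solid tissues, was -4.47 to -3.85 in the healthy libraries, 2.84 to 6.37 in the pre-leukemic and -5.31 to -1.81 in the recovered. For Coro1a over Coro1b, the broadly expressed coronin, the values were -2.35 to -1.08, 1.60 to 2.27 and -3.23 to -0.89. The leukocyte gene was thus the lower of these 3 pairs in every healthy and recovered library and the higher in every pre-leukemic one.

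The mean log2 ratios of 3 further pairs changed in the same direction. Laptm5 over Laptm4a was -2.85 ± 0.57 (SD, n = 2) in healthy, 2.50 ± 0.80 (n = 6) in pre-leukemic and -4.11 ± 0.82 (n = 4) in recovered libraries. Ptprc over Ptpra, a receptor phosphatase of many tissues, was -4.92 ± 0.78, 2.05 ± 0.53 and -3.42 ± 2.55. Cd53 over Cd81, a tetraspanin of nearly all cells, was -7.08 ± 0.20, -0.77 ± 0.23 and -6.06 ± 1.48, so Cd53 stayed below Cd81 even in the pre-leukemic libraries. In exact two-sided permutation tests of 6 pairs and 3 comparisons, every pair differed between recovered and pre-leukemic libraries (p = 0.009524, the smallest that 210 splits allow, 0.02857 after Benjamini-Hochberg adjustment over 18 tests). Between pre-leukemic and healthy every pair gave the smallest p that 28 splits allow, 0.07143 (exact permutation test, adjusted 0.1071). Between recovered and healthy p was 0.2667 to 0.9333 (exact permutation test). The pairs were chosen after their values were seen, and Coro2a, Pls1 and Cd82 were not paired. Each leukocyte gene alone already lay higher in every pre-leukemic library than in every other. The p-values of the ratios were therefore nearly set by that choice and serve as a description.

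**Figure D4:**
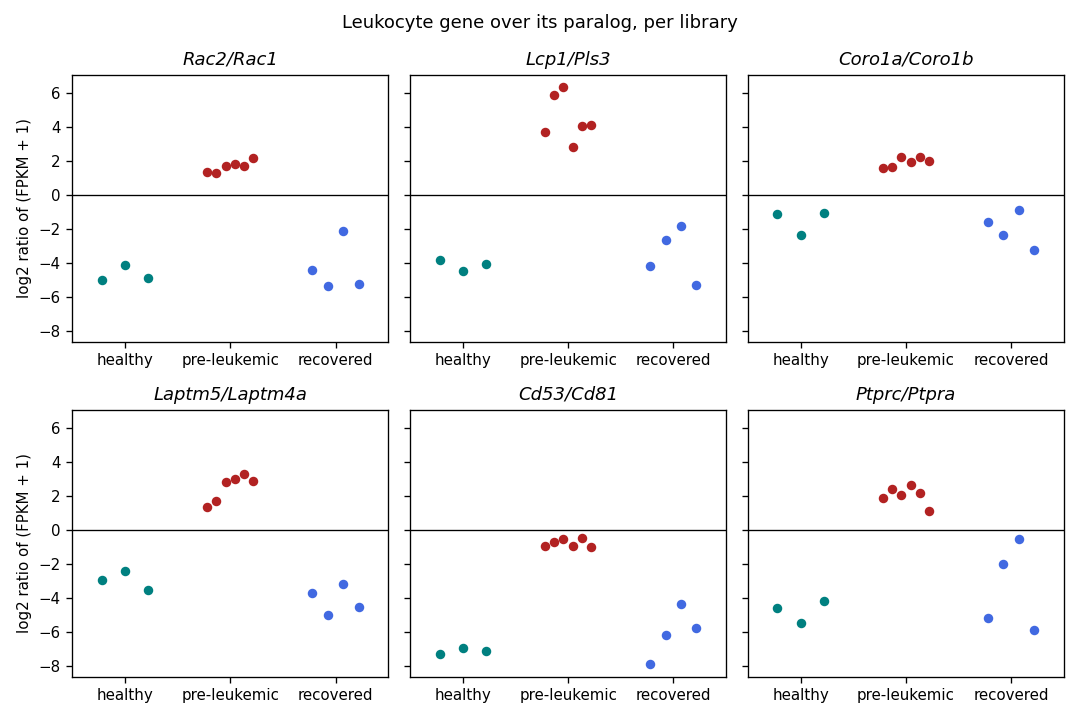
Log2 ratio of (FPKM + 1) of a leukocyte gene to its paralog in each library, for 6 pairs; points are the 3 healthy, 6 pre-leukemic and 4 recovered libraries, and the line marks equal levels. The pre-leukemic points lie above all others in every panel, and above 0 in all panels but Cd53/Cd81.

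Of 20 listed paralogs 18 were tested. Among them, 2 reached the filter only through the pre-leukemic libraries, Coro2a and Pls1, which favours a call of higher there. In pre-leukemic against healthy libraries 8 were lower, among them Cd9 by -3.65 ± 0.35 (SE), Tspan4 by -3.60 ± 0.55, Cd63 by -3.58 ± 0.56, and Pls3 by -3.37 ± 0.80 on the log2 scale (limma adjusted p of 4.749e-06 to 0.006308). Cd151, Ptprk, Ptprs and Cd81 were the other lower ones. Cd9, Cd63, Cd151 and Tspan4 kept the call under all 23 alternatives, and the rest lost it under 1 to 8. In the same comparison 4 were higher: Coro2a by 4.84 ± 0.46, Pls1 by 4.02 ± 0.44, Cd82 by 2.12 ± 0.50 and Coro1b by 1.41 ± 0.39 (SE), of which Cd82 was not called and Coro1b turned to -0.25 on the TPM scale. Pls1, a plastin of gut and ear, was at 0 in all 7 healthy and recovered libraries and at 11.2 to 20.5 FPKM in the pre-leukemic ones. Rac1, Coro1c, Coro2b, Laptm4a, Laptm4b and Ptpra did not pass the test, and Rac3 and Plek2 were not tested.

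The partners of the 9 genes moved with them to differing degrees. Of 19 tested genes of most leukocytes outside the 9, 18 were higher in pre-leukemic than in healthy libraries and none lower, with a median log2 difference of 4.04 against 0.20 over all genes. They include Itgb2, the shared chain of leukocyte integrins, at 6.53 ± 0.67 (SE), Cd52, a small surface glycoprotein, at 4.29 ± 0.78, and Arhgdib, which binds Rac2, at 2.62 ± 0.38. The 1 not called was Lsp1, an actin-binding protein at 159.6 to 207.4 FPKM already in the healthy libraries. On the TPM scale the count was 10 of 19. Of these 19 genes 18 were lower in recovered than in pre-leukemic libraries and 0 were called between recovered and healthy, where 2 had an unadjusted limma p under 0.05. In this list 4 of the 19, among them Itgb2, reached the filter only through the pre-leukemic libraries.

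Around CD45, 6 of 9 Src family kinases and regulators were higher in pre-leukemic than in healthy libraries and none lower. Lck, the T cell kinase that CD45 acts on, differed by 5.26 ± 0.67 (SE) and Lyn by 3.42 ± 0.73 on the log2 scale. In both lists described here 3 of 9 genes reached the filter only through the pre-leukemic libraries. Without healthy 2, which leaves 1 healthy sample assumed to vary like the other groups, 3 of 9 were called. Around Rac2, all 9 genes of the phagocyte oxidase and Rac regulation were higher, with Cybb, the catalytic subunit, at 5.39 ± 0.48 (SE), Ncf1 at 4.07 ± 0.50 and Cyba at 1.02 ± 0.30. Vav1, Dock2 and Arhgdib of this list were also counted above among the genes of most leukocytes. On the TPM scale 5 of these 9 were called. All 9 were lower in recovered than in pre-leukemic libraries, as were 8 of the 9 around CD45, or 4 of those on the TPM scale.

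Around Fcer1g, 4 of 6 tested Fc receptor and adapter genes were higher in pre-leukemic than in healthy libraries: Cd247 by 5.69 ± 0.47 (SE), Tyrobp by 5.43 ± 1.32, and Hcst and Fcgr2b. Of the 6, Cd247 and Fcgr3 reached the filter only through the pre-leukemic libraries. Syk, the kinase that such adapters recruit, differed by 1.495 ± 0.81 and was not called (limma adjusted p = 0.1885). Fcer1a, the chain of the mast cell IgE receptor that pairs with Fcer1g, was at 0 in all 13 libraries. Around Cd48, 7 of 8 tested genes of the SLAM family and its adapters were higher, with Cd2, its ligand, at 4.91 ± 0.62 (SE). However, 7 of the 8, Cd2 among them, had reached the filter only through the pre-leukemic libraries, which favours such a call. Of those called, only Slamf6 reached it without them. Cd244, the other receptor for Cd48, was at 0 in all healthy libraries and did not enter the test. Around Coro1a and Lcp1 were 10 actin regulators, of which Was, Hcls1 and Gmfg were also counted above among the genes of most leukocytes. Of the 10, 6 were higher and none lower, with Was at 1.86 ± 0.56 (SE), Hcls1 at 1.80 ± 0.49 and Wipf1, not called, at 0.48 ± 0.51. That count was 1 of 10 higher and 2 lower on the TPM scale, and 2 of 10 higher without healthy 2.

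**Figure D5:**
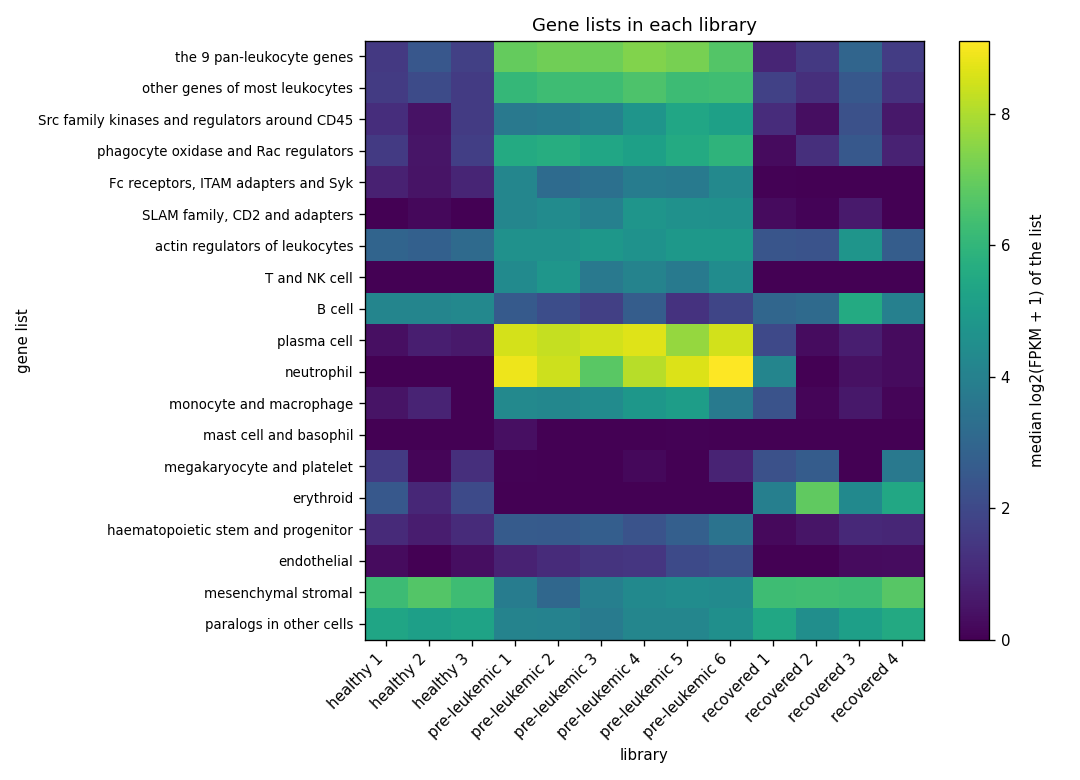
Median log2(FPKM + 1) of the 9 genes and of 18 other gene lists (rows) in each of the 13 libraries (columns). Within their rows, the 9 genes and the plasma cell, neutrophil, T cell and monocyte lists are brightest in the 6 pre-leukemic columns. The erythroid list is brightest in the 4 recovered columns, and the stromal list outside the pre-leukemic columns. The stromal medians in the pre-leukemic columns still run from 3.047 to 4.435.

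Markers of single blood lineages show which of them moved with the 9 genes. All 8 plasma cell genes were higher in pre-leukemic than in healthy libraries, with summed levels of 46600 to 72830 FPKM against 144.2 to 179.5 in the healthy and 78.0 to 164.0 in the recovered libraries. Igj alone held 44480 to 69250 FPKM of the pre-leukemic sums. Of 10 neutrophil genes 7 were higher, with sums of 3120 to 15250, 55.2 to 89.2 and 15.8 to 644.4 FPKM in the same order. S100a9 and Ngp were at 0 in every healthy library. Mpo, Elane and Cxcr2 were not called. Mpo was at 30.1 to 44.8 FPKM in the healthy libraries and at 0 to 199.8 in the pre-leukemic ones. Elane was at 24.5 to 34.8 FPKM in the healthy libraries and at 0 to 398.3 in the pre-leukemic ones. Of 9 tested monocyte and macrophage genes 5 were higher and 1, Vcam1, lower, with sums of 3410 to 5168, 62.9 to 75.1 and 48.0 to 118.4 FPKM. The 5 were Ly6c2, Ctss, Mpeg1, Ccr2 and Lyz2, and Ly6c2 alone held 2135 to 3728 FPKM of the pre-leukemic sums. Csf1r and C1qa, not called, were each at 0 in 3 of the 6 pre-leukemic libraries. Emr1 was at 0 in 4 of them and Cx3cr1 in all 6, so the sums do not stand for the list as a whole. Of 8 tested T and natural killer cell genes 6 were higher, with sums of 533.3 to 762.9, 18.5 to 30.3 and 0.667 to 77.6 FPKM. The 6 were Cd3g, Gzma, Cd4, Cd3e, Cd3d and Trbc2, whereas Nkg7 and Cd8a were not called. Klrb1c and Ncr1 of natural killer cells were at 0 in all 13 libraries, and Cd3d in all healthy and recovered ones. Of the genes tested in these 4 lists, 5 plasma cell, 6 neutrophil, 4 monocyte and 5 T cell genes reached the filter only through the pre-leukemic libraries. Their part in the levels of the 9 genes was not tested.

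The B cell list split: Cd79a, Cd79b, Ms4a1 and Blnk were higher in pre-leukemic than in healthy libraries, and Pax5, Ebf1, Vpreb1 and Igll1 of early B cells were lower. On the TPM scale 2 of the 10 were higher and 5 lower. Ms4a1 and Cd22 reached the filter only through the pre-leukemic libraries. Igll1 was at 87.4 to 89.6 FPKM in the healthy libraries, far above Ptprc there, and at 0 in all 6 pre-leukemic ones. The sums of the 10 B cell genes were 454.2 to 654.9 FPKM in pre-leukemic, 256.8 to 270.8 in healthy and 101.7 to 948.7 in recovered libraries. Of the mast cell list only Cpa3 and Gata2 were tested. Both were at 0 in every healthy and recovered library and reached the filter only through the pre-leukemic ones, where they had to differ, and the list summed to at most 23.8 FPKM. Of the stem and progenitor list 4 of 8 were higher, Kit, Flt3, Gata2 and Cd48 itself, and 2 of 8 on the TPM scale. Kit, Flt3 and Gata2, and Mecom, which was not called, reached the filter only through the pre-leukemic libraries. Of the endothelial list 0 of 6 passed the test and 1 had an unadjusted limma p under 0.05, and 9 of 12 stromal genes were lower. Thy1, Nt5e and Runx2 were the stromal genes not called. Between recovered and pre-leukemic libraries 10 of the 12 were higher in recovered, and Runx2 was lower.

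Genes of red cells were highest in the recovered libraries, unlike the 9. Summed levels of the 8 erythroid genes were 35.4 to 49.7 FPKM in the healthy libraries, 0 to 6.51 in the pre-leukemic and 1650 to 2638 in the recovered. The globin genes Hba-a1, Hba-a2, Hbb-bs and Hbb-bt were the 4 of this list called higher in recovered than in healthy libraries, Hba-a1 by 5.79 ± 0.45 (SE, limma adjusted p = 3.133e-05), while 0 of the 9 pan-leukocyte genes were. The neutrophil gene Lcn2 was also called higher there, at 13.9 to 152.2 FPKM in the recovered libraries and 0 in every healthy one. Of 4 tested megakaryocyte and platelet genes 0 were higher and 1, Gp1bb, was lower in pre-leukemic than in healthy libraries, and Pf4, Itga2b and Gp1bb were higher in recovered than in pre-leukemic ones. Plek, abundant in platelets, was lower in that comparison.

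The genes whose profile over the 12 samples was most like the median profile of the 9, by the root mean square difference of centred log2(FPKM + 1), were A630023P12Rik at 0.33, Cytip, a leukocyte adapter, at 0.39, Cybb at 0.41, Cst7, a cysteine protease inhibitor of cytotoxic cells, at 0.42 and Myo1g, a myosin of leukocyte membranes, at 0.43. Of the 9 themselves, Lcp1 at 0.35 and Rac2 at 0.36 lay nearest to that median profile. Ptprc lay farthest, at 1.11, and Fcer1g next, at 0.85. The likeness is a description, since samples of 1 group share their level.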

How the data were processed

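RNA-seq of sorted MSCs was analysed in 3 healthy, 6 pre-leukemic and 4 recovered libraries. FPKM values were made and deposited by the authors as 1 table of 33433 rows. The submitters' processing notes list bcl2fastq and TopHat, Cufflinks 2.2.1 with Cuffnorm, and mm10. How Cuffnorm scaled the libraries, and on which annotation, is not given in the sources used here, and a library in which few genes hold much RNA may be shifted as a whole. Per the labels' protocols, polyadenylated RNA went into Nextera XT libraries. A row without a symbol (0% of the summed FPKM) was left out.

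The 13118 genes that reached 1 FPKM in 3 or more libraries were fitted with limma 3.58.1 in R 4.3.3 (eBayes with trend) on log2(FPKM + 1), the 3 groups in 1 fit with 9 residual degrees of freedom. Calls had a Benjamini-Hochberg adjusted p under 0.05. A difference on this scale understates the change of low genes. The fit was tested on simulated data. The spacing of low values in single-transcript genes gave the depth, and estimated reads cover counting error only. Gene coordinates are from GENCODE on GRCm38. Alternatives were 3 scalings (quantile, TPM, and without immunoglobulin genes), a pseudocount of 0.1, no filter, a filter on a mean of 5 FPKM, fits of the compared groups alone, separate healthy libraries, a replicate block, and each library left out. Permutation tests used scipy 1.17.1.

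The members, gene lists and tests were chosen with earlier results of these data known. Named were the 9 members, first symbols of each other list, the paralogs, genes behind counts of 5 or fewer where a result turned on them, and the 5 most alike genes. Genes named for recovered 2 and recovered 3 were chosen after their values were seen.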

Additional observations from a re-analysis of the deposited data

Results flagged for a closer look

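In 74 groups of 4 or 6 libraries, 1 gene each, 16 had a highest library whose distance to the next was a larger part of the group's range than Dixon's 95% limit allows. Chance gives about 1 in 20 such groups only for normally distributed values of genes chosen beforehand. Here some genes were chosen after their values were seen, and FPKM was used without logs. Fcer1g, Plek2 and Ptprk were flagged because 1 library alone of the group detected them. The 16 therefore cannot be compared with that rate, and they serve as a description.

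Of the 9 pan-leukocyte genes, Ptprc in recovered 2 (16.44 FPKM), and Cd53 (19.33 FPKM) and Laptm5 (45.08 FPKM) in recovered 3 stood apart from the other 3 recovered libraries. Fcer1g was listed at 0 in 3 recovered libraries, and its 2.172 FPKM in recovered 3 stands for about 2.26 reads, under the 2.88 FPKM that 3 reads would give there. In recovered 2 the lymphocyte genes Sash3 (17.23 FPKM) and Cd3g (58.6 FPKM) stood apart as well. In recovered 3 so did Cd79b (96.36 FPKM), Vpreb1 (185.4 FPKM), Igll1 (496.9 FPKM), Tyrobp (119.1 FPKM), Ptprcap (57.44 FPKM) and Cd82 (61.94 FPKM). The genes other than the 9 and their paralogs were looked at after their values were seen.

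Among the paralogs, Plek2 was detected in recovered 1 alone (2.259 FPKM) and Ptprk in pre-leukemic 3 alone of its group (0.3294 FPKM). Laptm4b was high in pre-leukemic 4 (25.36 FPKM) and Cd151 in pre-leukemic 6 (22.59 FPKM).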

How the results depend on the processing

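Under the 23 alternatives, 9 of the 9 genes were called in each comparison with the pre-leukemic libraries and 0 between recovered and healthy. Their log2 differences kept direction and call, except for 16 uncalled recovered against healthy values that changed sign. Over all genes, 3583 calls between pre-leukemic and healthy became 1580 to 4114 with 1 library left out, lowest without healthy 2. The 329 calls between recovered and healthy became 211 by quantile normalization, 502 on the TPM scale, 122 with a mean of at least 5 FPKM, 103 with only those groups and 767 with separate healthy libraries. With 1 library left out they ran from 6, without healthy 2, to 679, without recovered 1. The cause was not tested. Without healthy 2 the lone healthy sample is assumed to vary like the other groups.

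Of all calls between pre-leukemic and healthy, 51.9% were higher, and 15.5% on the TPM scale, where Coro1b turned to -0.2457. Between recovered and pre-leukemic 37.1% were higher, against 76.2% on the TPM and 50.4% on the quantile scale. Between recovered and healthy they were 20.7%, 9.96% and 31.3%. The replicate numbers did not pair the libraries (correlations of -0.019 to 0.034 in 10 same-number pairs). With the replicate block 3700, 4527 and 303 genes were called in the 3 comparisons. Of 258 alternatives for the paralog ratios, 250 kept their side of the threshold and direction, 6 passed it with separate healthy libraries and 2 uncalled ones changed sign. Where Plek, Fcer1g or Ptprc stood at few reads or at 0, depth limits any order of healthy and recovered levels.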
